A study of Mus musculus with 54 samples.

Results

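The neurons of the cerebral cortex are stacked in layers, and 9 genes that are used to tell those layers apart are described here, out of 47069 genes counted in the series. They were chosen by name and each matched 1 gene of the GRCm38 annotation. There were 4 upper-layer genes (Cux1, Cux2, Rorb and Rasgrf2) and 5 deep-layer genes (Fezf2, Bcl11b, Tbr1, Foxp2 and Tle4). Upper-layer neurons mostly connect cortical areas with each other, whereas deep-layer neurons send their axons to the thalamus, brainstem, spinal cord and striatum. Cux1 and Cux2 are homeobox factors of the upper layers, Rorb is a nuclear receptor that marks the layer receiving thalamic input, and Rasgrf2 is an exchange factor for Ras and Rac. Fezf2 specifies neurons that project below the cortex, Bcl11b (CTIP2) acts in the same neurons, Tbr1 is a T-box factor of corticothalamic neurons, Foxp2 is a forkhead factor and Tle4 a Groucho co-repressor, both used as layer 6 markers. Several of them are not restricted to the cortex. Bcl11b and Foxp2 are also found in projection neurons of the striatum, and Foxp2 in Purkinje cells of the cerebellum.

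RNA-seq was made from cortex, striatum and cerebellum of 18 mice on a C57BL/6 background at 8 weeks of age, with 1 library per mouse and region. There were 10 Mbd5+/GT mice, which carry on 1 allele of Mbd5 an intronic gene trap (pU-21B) that lowers but does not abolish its expression, and 8 WT littermates without the trap. The trap is in the germline, so it is not limited to a cell type, and the tissue was whole dissected regions, not separated layers. In such bulk RNA, fewer cells of a type and less RNA per cell cannot be told apart. Only 1 of the WT mice used came from litter 2 of the 3 litters, and the mice used from litters 1 and 2 were each of a single sex. The labels mark 2 WT striatum libraries as repeated. Between 25295973 and 49027399 reads per library fell on genes. Levels are given as CPM, the share of the reads of a library that fell on a gene, scaled to a common library size with TMM factors. Mbd5 checked the genotype labels by group mean, not library by library, because its ranges overlapped in every region. In cortex it lay between 47.7 and 75.6 CPM in WT and between 40.6 and 53.0 CPM in Mbd5+/GT mice. The ranges were 35.5 to 61.7 and 26.1 to 41.8 CPM in striatum, and 42.5 to 75.5 and 29.8 to 65.7 CPM in cerebellum. The log2 fold change of Mbd5 was −0.49 ± 0.048 in cortex (SE, edgeR adjusted p = 0.00012). It was −0.51 ± 0.048 for striatum (adjusted p = 9.41e-05) and −0.34 ± 0.048 for cerebellum (adjusted p = 0.0091).

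The purity of the dissected regions matters for layer genes, and some libraries stood apart from their label. Markers of striatal projection neurons (10 genes such as Drd1 and Drd2, none of the 9 layer genes) summed to 356 CPM to 8986 CPM in the striatum. The lowest sums belonged to WT mice M754 and M761, and those of Mbd5+/GT mice M763, M755 and M756 were also under 0.5 times the median of 4151 CPM. Slc17a7, the vesicular glutamate transporter of cortical excitatory neurons, ranged from 14.5 CPM in Mbd5+/GT mouse M764 to 1085 CPM in Mbd5+/GT mouse M756 in striatum libraries. Cortical and striatal markers therefore varied widely among the libraries labelled striatum. In cortex, the same striatal markers summed to a median of 1507 CPM in WT and 738 CPM in Mbd5+/GT libraries, and those of WT mice M752, M759, M761 and M765 were above 2 times the median of 866 CPM. In cerebellum, the granule cell markers summed to 196 CPM in Mbd5+/GT mouse M755 and to 1836 CPM in WT mouse M754, against a median of 5358 CPM, while Gabra6, the receptor subunit that defines granule cells, was at 1.76 CPM in mouse M755. These 11 libraries are called set aside below, and the main comparisons are given with and without them.

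The cortex set itself apart from the striatum by its upper-layer genes. Of the 9 genes, 4 were higher in WT cortex than in WT striatum, where 6.15% of the 20477 genes tested were (adjusted p under 0.05 and at least 2-fold), and none was lower, as 4.4% of all genes were. Rasgrf2, Cux2 and Rorb were all upper-layer genes, and Tbr1 was the only deep-layer gene among them. Cux2 lay at 68.3 to 149 CPM in WT cortex (median 99.9) and at 16.4 to 67.7 CPM in WT striatum (median 26.6). Its log2 fold change was 1.60 ± 0.22 (SE, adjusted p = 3.13e-07, edgeR). The ranges did not overlap, although the highest striatum library, that of WT mouse M754 with few striatal markers, came close. Rorb, at 44.8 to 96.7 CPM in WT cortex and 18.2 to 29.7 CPM in WT striatum, was higher by 1.44 ± 0.20 on the log2 scale (adjusted p = 3.25e-07). Rasgrf2 was higher by 1.67 ± 0.60 (adjusted p = 0.020), with a minimum of 156 CPM in WT cortex and a maximum of 111 CPM in WT striatum. Cux1, the least cortical of the upper-layer genes, was higher by 0.56 ± 0.13 (adjusted p = 0.00032), which is under 2-fold.

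The deep-layer genes did not separate cortex from striatum as a group. Tbr1 was higher in WT cortex (62.9 to 163 CPM) than in WT striatum (22.3 to 66.6 CPM), with ranges that overlapped slightly and a log2 fold change of 1.11 ± 0.35 (adjusted p = 0.0076). Fezf2 was nearly level, at a median of 16.3 CPM in WT cortex and 16.7 CPM in WT striatum. Over the 18 striatum libraries, however, Fezf2 and Tbr1 rose with the mean log2 CPM of cortical excitatory neuron markers (Pearson r = 0.85 and 0.97). How much of their level there came from cortical tissue was not tested. Bcl11b (log2 fold change −0.32 ± 0.37, adjusted p = 0.50), Foxp2 (−0.16 ± 0.23, adjusted p = 0.61) and Tle4 (−0.23 ± 0.12, adjusted p = 0.10) had negative estimates that did not pass the test. Without the set-aside libraries, which leaves 4 WT cortex and 6 WT striatum libraries, 6 of the 9 genes passed. Bcl11b (−1.09 ± 0.27, adjusted p = 0.0019) and Foxp2 (−1.03 ± 0.25, adjusted p = 0.0012) were then lower in cortex, and the 4 genes named above remained higher. The rule removed cortex libraries with the most striatal markers and striatum libraries with the fewest. Bcl11b and Foxp2 rose with those markers in both regions, so the direction of their change was largely set by the removal. In the 10 Mbd5+/GT mice, Cux2, Rorb and Rasgrf2 passed and Tbr1 did not (0.74 ± 0.31, adjusted p = 0.058), while Bcl11b (−0.83 ± 0.33, adjusted p = 0.048) was lower by less than 2-fold and ranged from 51.9 to 97.9 CPM in cortex and from 102 to 225 CPM in striatum without overlap.

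**Figure D1:**
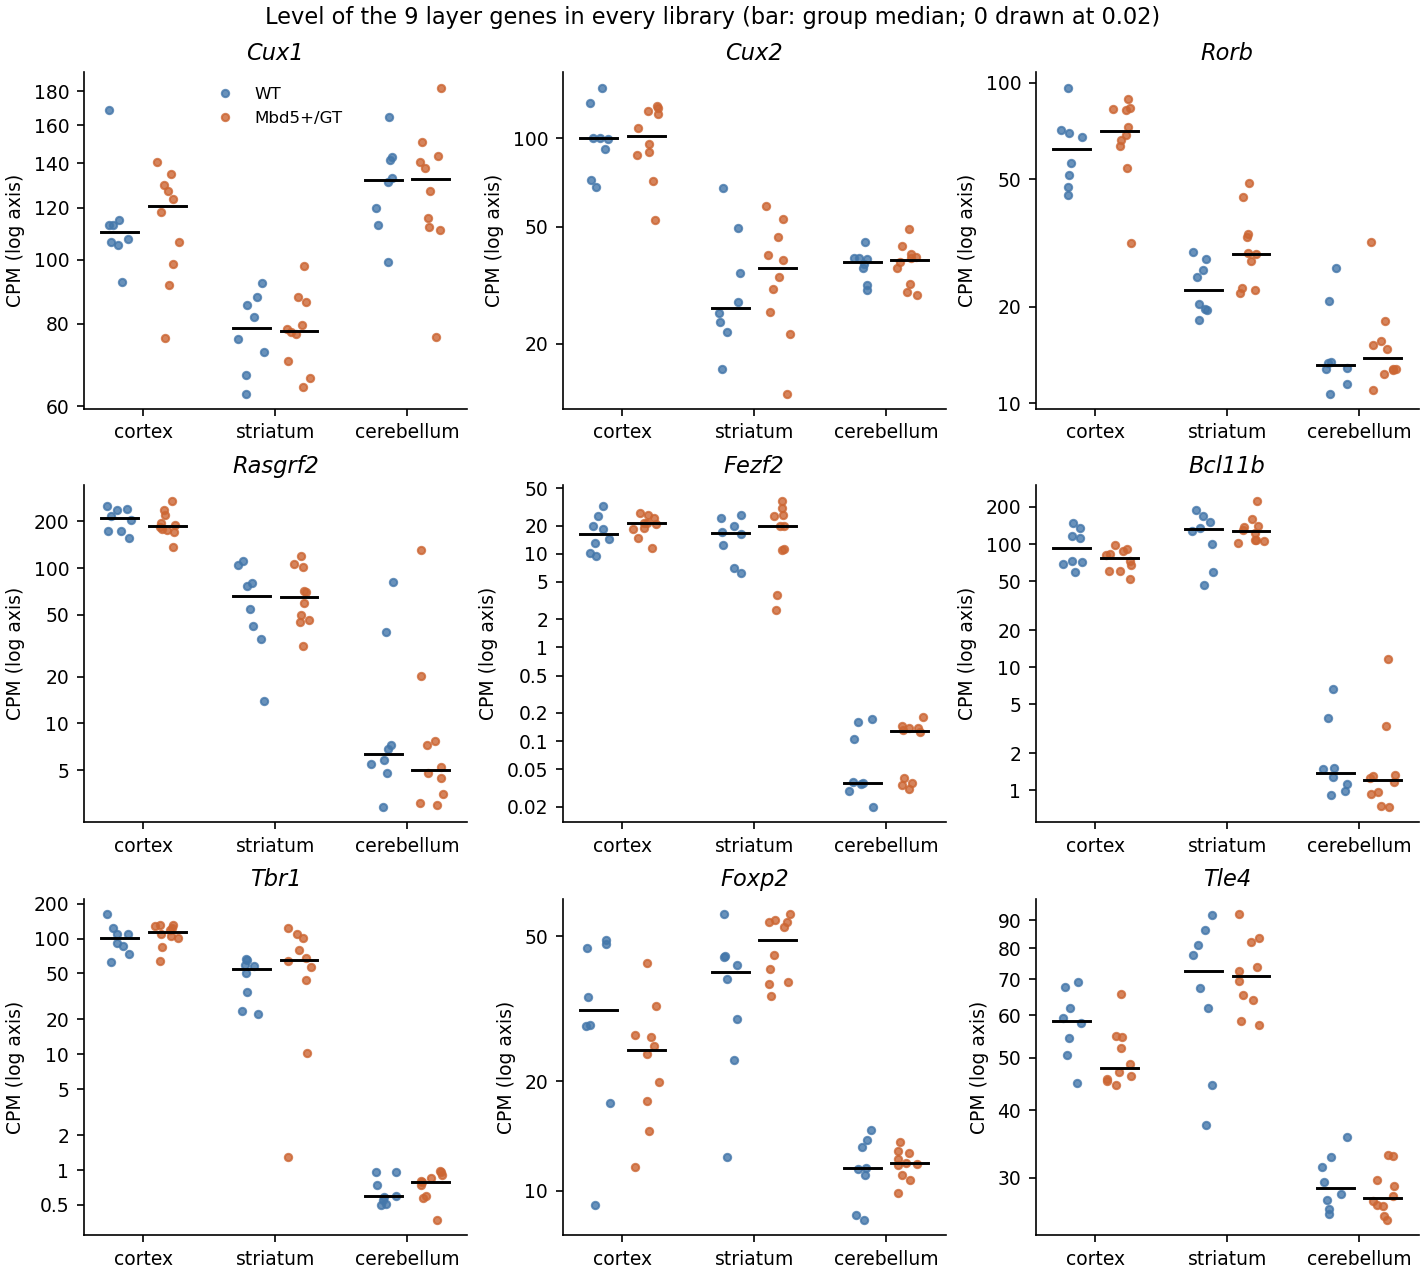
CPM of each layer gene (log axis, a scale of its own in each panel) in the 54 libraries, by region and genotype, with 8 WT and 10 Mbd5+/GT mice per region. Each point is 1 library and the bar is the group median. Fezf2, Tbr1 and Bcl11b were lowest in cerebellum (log2 differences from cortex of 7.88, 7.23 and 5.43 in WT), whereas Cux1 was as high there as in cortex, and the genotypes overlapped in every panel.

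The cerebellum nearly lacked 3 of the deep-layer genes. Fezf2 had 0 to 5 reads per library in WT cerebellum (17 reads over 8 libraries) against 282 to 1003 reads in WT cortex. Tbr1 lay at 0.50 to 0.96 CPM in WT cerebellum, and Bcl11b at 0.92 to 6.60 CPM. The log2 fold changes of cortex against cerebellum were 7.88 ± 0.52 for Fezf2, 7.23 ± 0.48 for Tbr1 and 5.43 ± 0.46 for Bcl11b, and the first depends on the prior count because Fezf2 was near 0. Of the other genes, Rorb (2.05 ± 0.21), Foxp2 (1.49 ± 0.24) and Cux2 (1.45 ± 0.22) were higher in cortex, and Rasgrf2 by 3.42 ± 0.64, with adjusted p of at most 1.08e-05 for these 4 genes. Tle4 was 0.98 ± 0.12 higher, just under 2-fold, and Cux1 did not pass (−0.18 ± 0.13, adjusted p = 0.22). In all, 7 of 9 genes were higher in cortex than in cerebellum by the rule that 15.7% of all genes met in that direction. No gene was lower, as 8.97% of all genes were. Without the set-aside libraries 6 passed, because the difference of Foxp2 fell to 0.80 ± 0.23. The cortex libraries left out had the most striatal markers, so the direction of this fall was largely set by the removal. The difference of Rasgrf2 was then 4.36 ± 0.48. WT mouse M754, at 81.9 CPM against a WT cerebellum median of 6.32 CPM, is not in that fit.

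Striatum against cerebellum gave 6 genes higher in the striatum, where 17.3% of all genes were. All 5 deep-layer genes were among them, with log2 fold changes from 1.21 ± 0.12 for Tle4 to 7.74 ± 0.52 for Fezf2, but only Rasgrf2 of the upper-layer genes (1.75 ± 0.61, adjusted p = 0.010). The same 6 genes passed without the set-aside libraries, with Rasgrf2 at 2.30 ± 0.43 and Bcl11b at 6.49 ± 0.29. Striatum libraries with few striatal markers were left out, so the rise of Bcl11b was largely set by the removal. Cux1 lay lower in striatum (62.7 to 92.1 CPM in WT) than in cerebellum (99.1 to 165 CPM), a difference of −0.74 ± 0.13 (adjusted p = 1.13e-06) that was under 2-fold. The 3 region comparisons share their WT libraries, so their values are not independent of each other. Cux1 shares its locus with the transcript of CASP, a Golgi protein, and counts per gene do not separate them.

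Per kilobase of annotated exon, Rasgrf2 (21.7 ± 3.89 CPM per kb, SD, n = 18) and Tbr1 (19.4 ± 4.76) were the most abundant of the 9 genes in cortex. Bcl11b (10.5 ± 3.33), Cux2 (10.0 ± 2.54) and Tle4 (9.46 ± 1.43) followed, then Fezf2 (6.33 ± 2.07), Rorb (6.02 ± 1.52) and Cux1 (5.74 ± 1.05), and Foxp2 was the lowest (1.70 ± 0.75). Neighbours within each of these groups differed by less than their spread. In striatum the order changed, with Bcl11b (15.9 ± 5.24) and Tle4 (12.4 ± 2.66) at the top and Rorb (2.51 ± 0.74) at the bottom. In cerebellum Cux1 (6.50 ± 1.22) and Tle4 (5.06 ± 0.54) led, and Tbr1 (0.13 ± 0.035) and Fezf2 (0.029 ± 0.020) came last.

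Other genes with a layer pattern in the cortex, 18 upper-layer and 20 deep-layer, were compared in the same fit. Between cortex and striatum, 6 upper-layer genes were higher in cortex and none lower (6.15% and 4.4% of all genes), among them Unc5d (1.79 ± 0.30), a netrin receptor, and Inhba (1.31 ± 0.46), an activin subunit. Of the deep-layer genes 2 were higher and 3 lower, and the largest differences were those of Pcp4 (−1.34 ± 0.31), a calmodulin regulator, Sox5 (1.16 ± 0.18) and Crym (−1.10 ± 0.31). The median log2 difference was 0.64 over the upper-layer and 0.34 over the deep-layer genes, against 0.00077 over all genes tested. With the set-aside libraries left out, 5 upper-layer genes were higher and 1 lower, and 3 deep-layer genes each way. Between cortex and cerebellum, 15 upper-layer genes were higher (15.7% of all genes), among them Lhx2 (6.11 ± 0.50) and Rspo1 (4.47 ± 0.51), and 2 lower (8.97%), and 10 deep-layer genes were higher and 5 lower, with Crym (8.01 ± 0.47), Cplx3 (4.10 ± 0.41) and Hs3st4 (3.98 ± 0.59) ahead. These counts without the set-aside libraries were 14 and 2 for the upper-layer and 12 and 4 for the deep-layer genes. Between striatum and cerebellum, where 17.3% of all genes were higher and 12.8% lower, the counts were 9 higher and 2 lower for upper-layer genes, and 9 and 5 for deep-layer genes, and the higher genes included Lhx2 (5.75 ± 0.50) and Pou3f1 (4.64 ± 0.35) of the first list and Crym (9.11 ± 0.49), Cplx3 (4.61 ± 0.42) and Hs3st4 (4.42 ± 0.60) of the second. They were 12 and 3, and 9 and 5, without the set-aside libraries.

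Among the cortex libraries, the coefficient of variation between the 18 mice was 15.1% for Tle4 to 43.9% for Foxp2. Counting error alone would give 1.31% to 4.21% over the 9 genes, so depth did not limit these values. On the log2 scale the SD of Foxp2 was 0.69 and that of Fezf2 0.50, and 1.14% and 2.99% of 11866 genes of at least 5 CPM varied more. The median SD of those genes was 0.19. Tle4, Rasgrf2 and Cux1 were the steadiest, with SDs of 0.21, 0.26 and 0.26, and 40.0%, 23.8% and 23.3% of genes varied more than they did.

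Across all 18 cortex libraries the deep-layer genes fell in 2 sets, a pattern that depended on the set-aside libraries. Fezf2 and Tbr1 rose and fell together across the 18 cortex libraries (Pearson r = 0.85), Bcl11b, Foxp2 and Tle4 did so among themselves (r = 0.55 to 0.65), and all 6 pairs between the sets had negative r (−0.75 to −0.17). The upper-layer genes were positively correlated with each other in all 6 pairs (r = 0.46 to 0.90) and with Fezf2 and Tbr1 in all 8 pairs, and negatively with the other set in all 12 pairs. Over all pairs of genes of at least 5 CPM the median r was 0.0056. These r are descriptions over libraries that also share depth scaling and litters. The median over pairs of 2 deep-layer genes was −0.25, so these genes did not move as 1 layer group. In the 14 libraries left without the 4 set aside, Fezf2 and Tbr1 still went together (r = 0.79), as did the upper-layer genes (r = 0.54 to 0.90 in all 6 pairs). Bcl11b, Foxp2 and Tle4 were then only weakly correlated (r = 0.099 to 0.48), and 4 of the 6 pairs between the sets had positive r (−0.54 to 0.19). All 12 pairs of these 3 genes with upper-layer genes remained negative (−0.58 to −0.029).

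**Figure D2:**
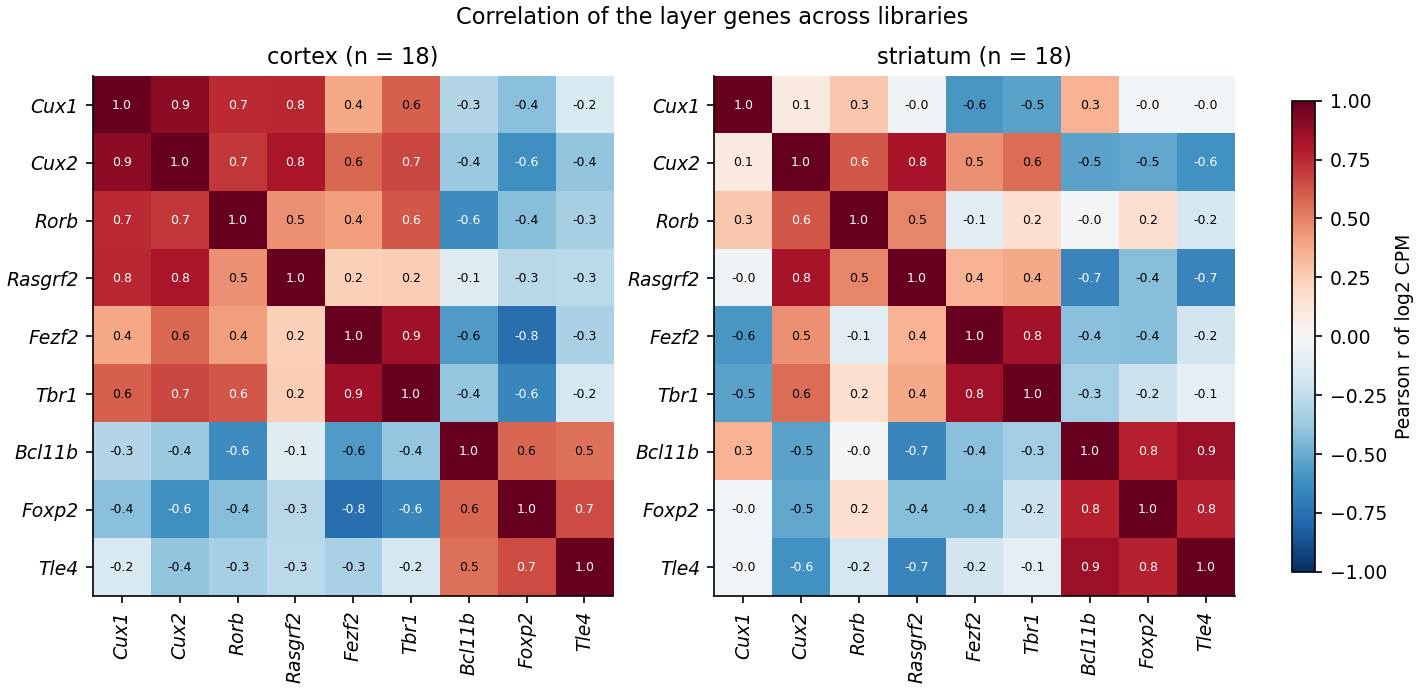
Pearson r of log2 CPM between the layer genes over the 18 cortex libraries (left) and the 18 striatum libraries (right), from −1 (blue) to 1 (red), with r printed in each cell. In both regions Fezf2 goes with Tbr1 (0.85 and 0.84), and Bcl11b, Foxp2 and Tle4 form a block of their own (0.55 to 0.65 and 0.77 to 0.85), which weakens to 0.099 to 0.48 and 0.22 to 0.63 without the set-aside libraries.

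The levels were then set against markers of both regions. For each library a striatal score and a cortical score were taken as the mean log2 CPM of the striatal projection neuron markers and of 8 cortical excitatory neuron markers (Slc17a7, Neurod6 and others), none of which is a layer gene described here, and every gene was fitted on the score with genotype as a term (edgeR, 18 libraries). Per doubling of the striatal score, Foxp2 rose by 0.54 ± 0.064 on the log2 scale in cortex (adjusted p = 2.13e-05) and Bcl11b by 0.26 ± 0.057 (adjusted p = 0.0093), as 2.57% of 18651 genes did. Fezf2 fell by 0.32 ± 0.067 (adjusted p = 0.0072), as 2.27% of genes did. Tle4 (0.087 ± 0.037, adjusted p = 0.20) and Tbr1 (−0.18 ± 0.066, adjusted p = 0.15) had the sign of their set without passing. With litter as a further term the same number of the 9 genes, 3, passed, where 363 of 18651 genes rose and 226 fell. In the 14 libraries left without the 4 set aside, 1 passed. Over all 18651 genes, 86 rose and 39 fell in that fit, against 479 and 423 with all 18 libraries. The slope of Foxp2 was then 0.54 ± 0.098 (adjusted p = 0.019) and that of Bcl11b 0.11 ± 0.071 (adjusted p = 0.46).

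The values of single libraries show how far this reached. In the cortex libraries with the most Drd2, a dopamine receptor of striatal neurons (42.8 CPM in WT mouse M752 and 39.6 CPM in WT mouse M761), Foxp2 was at 47.6 and 48.9 CPM. In the cortex library with the least Drd2 (1.13 CPM in WT mouse M754) Foxp2 was at 9.16 CPM, its lowest level in cortex. Fezf2 went the other way, with 10.3 CPM in mouse M752, 9.51 CPM in mouse M761 and 25.4 CPM in mouse M754.

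On the cortical score the picture was reversed and wider. Fezf2 rose by 1.21 ± 0.18 per doubling of the score (adjusted p = 0.00013), Tbr1 by 1.01 ± 0.11 (adjusted p = 1.16e-05), Cux2 by 0.88 ± 0.18 (adjusted p = 0.0024), Rorb by 0.79 ± 0.20 (adjusted p = 0.012) and Cux1 by 0.47 ± 0.15 (adjusted p = 0.047). These 5 genes moved in the direction in which 6.67% of 18653 genes passed. Foxp2 fell by 1.49 ± 0.26 (adjusted p = 0.00076) and Bcl11b by 0.69 ± 0.23 (adjusted p = 0.049), the direction of 5.61% of genes. Rasgrf2 and Tle4 did not pass. With litter as a term 6 genes passed, where 851 of 18653 genes rose and 747 fell. Without the 4 set-aside libraries 2 passed, Tbr1 (1.12 ± 0.17, adjusted p = 0.0017) and Cux2 (1.14 ± 0.26, adjusted p = 0.021), and the slope of Bcl11b was 0.040 ± 0.27. Over all 18653 genes, 529 rose and 444 fell in that fit, against 1244 and 1047 with all 18 libraries.

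**Figure D3:**
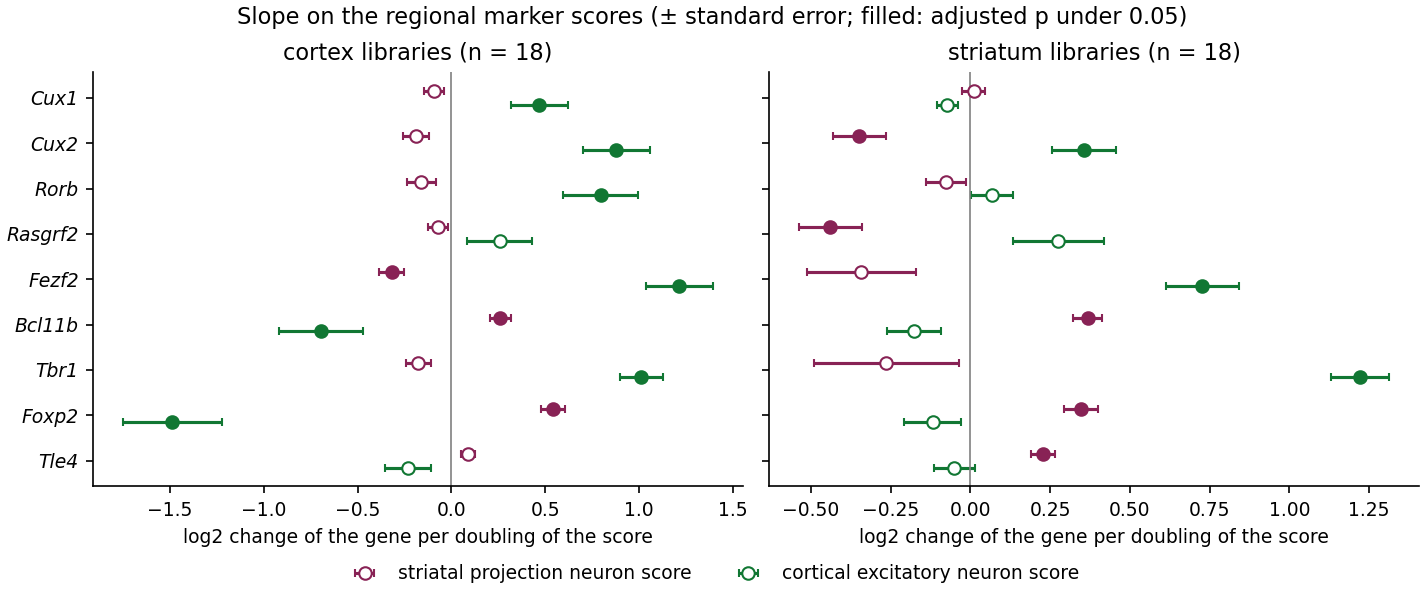
Change of each layer gene (log2) per doubling of the striatal projection neuron score (purple) or of the cortical excitatory neuron score (green) over the 18 cortex libraries (left) and the 18 striatum libraries (right), with standard errors; filled points have an adjusted p under 0.05. In cortex Foxp2 and Bcl11b lie on the opposite side of Fezf2, Tbr1 and the upper-layer genes on both scores.

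The start-site sequences of genes in the 2 sets are shown because their members moved together over all 18 libraries. The RefSeq tables (GRCm38.p6) matched 8 of the 9 genes with windows from 250 bases before to 50 bases after an annotated start, and Foxp2 had none. Capitals mark the GC box (GGGCGG, or CCGCCC on the other strand), which 35.7% of 32841 windows of this length held.
Tbr1 (chr2:61804203-61804502, plus strand): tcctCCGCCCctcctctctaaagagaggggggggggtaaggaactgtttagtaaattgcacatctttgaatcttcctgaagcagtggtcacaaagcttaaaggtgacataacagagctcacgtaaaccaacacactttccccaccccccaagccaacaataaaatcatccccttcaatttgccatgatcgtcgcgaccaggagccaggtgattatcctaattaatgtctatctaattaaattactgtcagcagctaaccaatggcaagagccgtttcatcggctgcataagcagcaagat
Fezf2 (chr14:12345816-12346115, minus strand): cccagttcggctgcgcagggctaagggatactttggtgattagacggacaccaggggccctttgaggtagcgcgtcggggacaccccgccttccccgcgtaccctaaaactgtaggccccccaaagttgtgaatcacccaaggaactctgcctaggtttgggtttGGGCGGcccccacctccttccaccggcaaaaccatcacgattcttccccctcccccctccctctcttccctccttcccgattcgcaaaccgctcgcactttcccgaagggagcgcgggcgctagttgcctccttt
Bcl11b (chr12:108003365-108003664, minus strand): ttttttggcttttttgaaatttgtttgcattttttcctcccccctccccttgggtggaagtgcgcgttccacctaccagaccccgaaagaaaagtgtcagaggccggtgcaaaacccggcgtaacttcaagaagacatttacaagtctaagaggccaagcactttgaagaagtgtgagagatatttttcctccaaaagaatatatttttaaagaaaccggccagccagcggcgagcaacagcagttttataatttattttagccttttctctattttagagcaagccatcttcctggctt
Tle4 (chr19:14598134-14598433, minus strand, the first of 2 windows): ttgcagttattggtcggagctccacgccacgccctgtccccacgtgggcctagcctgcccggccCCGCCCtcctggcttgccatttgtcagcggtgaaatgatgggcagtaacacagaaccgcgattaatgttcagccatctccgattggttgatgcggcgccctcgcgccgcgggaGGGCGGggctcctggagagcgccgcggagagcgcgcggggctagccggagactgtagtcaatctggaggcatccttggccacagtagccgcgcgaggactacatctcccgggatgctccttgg
The windows of Fezf2 and Tle4 were rich in CG pairs (20 and 28, against a median of 7 over all windows) and those of Bcl11b (9) and Tbr1 (7) were not, so the members of each set were not alike in this feature. Tbr1 and Fezf2 held 1 GC box each, this Tle4 window 2 and Bcl11b none. A TATA box (TATAAA, or TTTATA), found in 13.6% of all windows, was present in that of Bcl11b only, and none of the 4 held the E-box CAGATG (or CATCTG), which 17.2% of windows held.

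Tbr1 was the most variable of the 9 genes in the striatum libraries. Tbr1 ran from 1.31 CPM in Mbd5+/GT mouse M764, the library with the least Slc17a7, to 124 CPM in Mbd5+/GT mouse M756, the library with the most, a 94.9-fold range. Per doubling of the cortical score Tbr1 rose by 1.22 ± 0.092 (adjusted p = 1.21e-07), Fezf2 by 0.73 ± 0.12 (adjusted p = 0.00055) and Cux2 by 0.36 ± 0.10 (adjusted p = 0.045), as 4.18% of 18538 genes did. None of the 9 genes fell on it, and 1.06% of all genes did. Without the 5 set-aside striatum libraries Tbr1 (1.27 ± 0.094) and Fezf2 (0.74 ± 0.13) still passed, where 587 of 18538 genes rose and 218 fell.

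On the striatal score within the striatum, Bcl11b (0.37 ± 0.045, adjusted p = 1.38e-05), Foxp2 (0.35 ± 0.052, adjusted p = 0.00014) and Tle4 (0.23 ± 0.038, adjusted p = 0.00039) rose, as 6.87% of 18536 genes did. Cux2 fell by 0.35 ± 0.082 (adjusted p = 0.0075) and Rasgrf2 by 0.44 ± 0.098 (adjusted p = 0.0052), as 7.44% of genes did. Without the 5 set-aside libraries, which span most of the range of the score, Bcl11b alone passed (0.52 ± 0.099, adjusted p = 0.0066). Over all 18536 genes, 549 rose and 470 fell in that fit, against 1273 and 1380 with all 18 libraries. Bcl11b was at 46.4 CPM in WT mouse M761 and 59.5 CPM in WT mouse M754, the libraries with the fewest striatal markers, and at 225 CPM in Mbd5+/GT mouse M764, the library with the most. Foxp2 was at 12.4 CPM in WT mouse M754 and at most 57.6 CPM.

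In cerebellum, 4 of the 8 genes that passed the filter on low counts there changed with the granule cell score. Over all genes tested 22.3% rose and 22.1% fell on it, so this count was near the share over all genes. Rasgrf2 fell by 1.09 ± 0.15 per doubling (adjusted p = 1.60e-05), Bcl11b by 0.72 ± 0.098 (adjusted p = 1.04e-05) and Rorb by 0.28 ± 0.048 (adjusted p = 0.00012), the direction of 22.1% of 18152 genes, and Cux1 rose by 0.16 ± 0.040 (adjusted p = 0.0026), the direction of 22.3%. In the library of Mbd5+/GT mouse M755 Rasgrf2 was at 131 CPM against a median of 5.64 CPM over all cerebellum libraries, and oligodendrocyte markers summed to 31707 CPM, the most of any cerebellum library. Without that library and that of WT mouse M754, 211 of 18152 genes rose and 649 fell. Rasgrf2 (−3.87 ± 0.80, adjusted p = 0.010), Bcl11b (−2.56 ± 0.63, adjusted p = 0.030) and Foxp2 (0.82 ± 0.23, adjusted p = 0.047) then passed, and Rorb and Cux1 did not. Which cells carried Rasgrf2 in these libraries was not tested.

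The layer balance was taken as the mean log2 CPM of the 4 upper-layer genes minus that of the 5 deep-layer genes in each cortex library, and is described without a test. It ran from 0.74 to 1.65 in WT (median 1.17) and from 0.28 to 1.70 in Mbd5+/GT mice (median 1.35). The means were 1.18 ± 0.34 (SD, n = 8) and 1.29 ± 0.39 (SD, n = 10), so the genotypes differed by 0.10, under the spread within each. Within litters 1, 2 and 3 the difference was 0.26, 0.30 and 0.16, higher in Mbd5+/GT mice each time, with 1 WT mouse in litter 2. Without the 4 set-aside WT libraries it was 0.17 in litter 1 and −0.0096 in litter 3, and litter 2 had no WT library. The rule removed only WT libraries, those with the most striatal markers, and the balance fell with those markers. The downward direction of this change was therefore largely set by the removal. The lowest value, 0.28, belonged to Mbd5+/GT mouse M766. Its cortex library had the lowest Cux1, Cux2, Rorb and Rasgrf2 of the Mbd5+/GT mice (76.1, 52.7, 31.8 and 137 CPM) together with their highest Bcl11b, Foxp2 and Tle4 (97.9, 42.1 and 65.7 CPM), and a striatal marker sum of 1675 CPM.

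Read against the markers, the balance depended on which deep-layer genes it used. With all 5 genes it went down as the striatal score went up (Pearson r = −0.66, Spearman rho = −0.71 over 18 libraries, r = −0.58 without the 2 libraries of most extreme score and −0.76 with litter means removed). Without the 4 set-aside libraries r was −0.57. With Bcl11b, Foxp2 and Tle4 as the deep-layer genes r was −0.84, and with Fezf2 and Tbr1 it was 0.42. Without Bcl11b, Foxp2 and Rasgrf2 it was −0.036, and with the 18 and 20 other layer genes in place of the 9 it was −0.18. The sign of the genotype difference changed with this choice as well. It was 0.30 with Bcl11b, Foxp2 and Tle4 and −0.19 with Fezf2 and Tbr1. With all 5 genes but without the 4 set-aside WT libraries it was −0.12, a downward shift largely set by that removal. The genotype difference was −0.028 without Bcl11b, Foxp2 and Rasgrf2, and −0.069 with the other layer genes. None of these differences exceeded the SD within the genotypes.

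**Figure D4:**
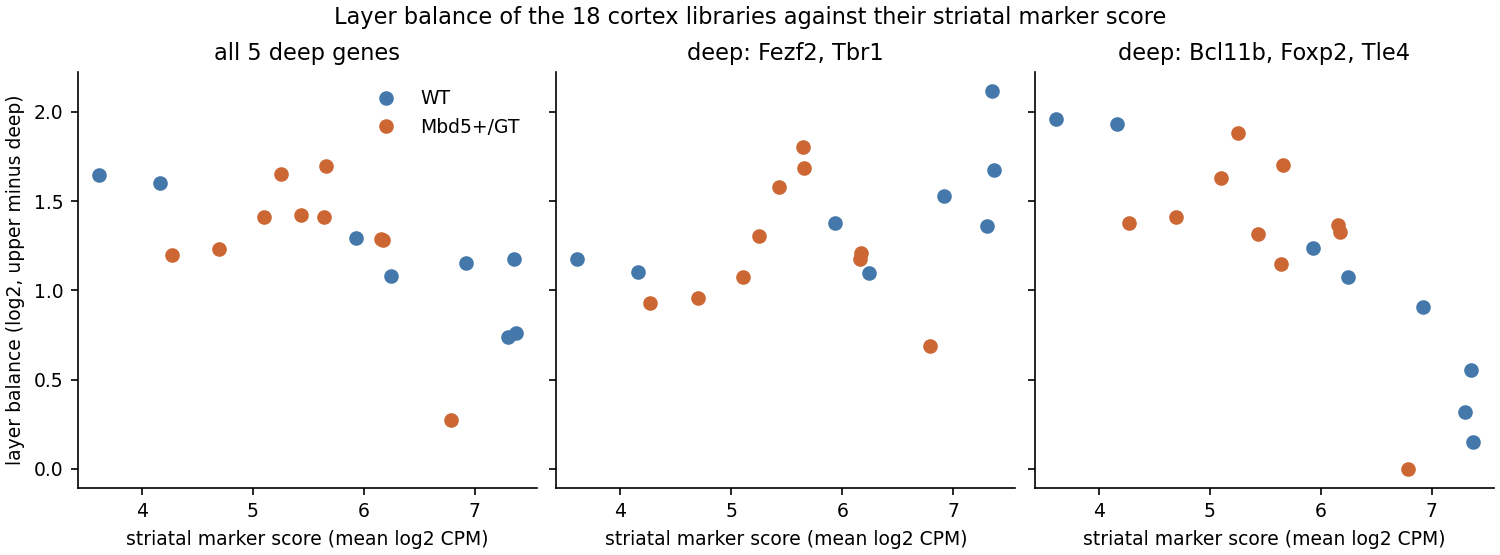
Layer balance (log2, upper-layer minus deep-layer mean) of the 18 cortex libraries against their striatal marker score (mean log2 CPM), with all 5 deep-layer genes (left), with Fezf2 and Tbr1 (middle) and with Bcl11b, Foxp2 and Tle4 (right), in WT (blue) and Mbd5+/GT mice (orange). The points fall with the score on the right (r = −0.84) and not in the middle (r = 0.42), and the genotypes overlap in all 3 panels.

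Genotype changed none of the 9 genes by the test. In cortex, 0 of 9 passed an adjusted p under 0.05 with edgeR, where 0.0107% of 18661 genes did. With DESeq2 0 of 9 passed, where 62 of 18661 genes did. At an unadjusted p under 0.05, Tle4 and Bcl11b were lower in Mbd5+/GT mice, the direction in which 4.51% of genes reached that level. Tle4 lay at 44.9 to 69.3 CPM in WT (median 58.6) and 44.5 to 65.7 CPM in Mbd5+/GT mice (median 48.0), with a log2 fold change of −0.19 ± 0.081 (unadjusted p = 0.031, adjusted p = 0.53). Bcl11b lay at 59.2 to 149 CPM in WT (median 92.4) and 51.9 to 97.9 CPM in Mbd5+/GT mice (median 77.2), with −0.29 ± 0.13 (unadjusted p = 0.039, adjusted p = 0.55). The ranges overlapped for both. Both, and also Foxp2, were lower on average in each of the 3 litters. In litter 2 this rests on 1 WT mouse, M765, whose cortex library is among those set aside. Foxp2 followed at −0.20 ± 0.13 (adjusted p = 0.74), Fezf2 at 0.16 ± 0.12 (adjusted p = 0.79), and the other 5 genes lay between −0.073 and 0.10.

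Bcl11b and Foxp2, which rose with the striatal score, had the lowest estimates. The score itself was 5.52 in Mbd5+/GT and 6.11 in WT cortex, a difference of −0.59 (mean log2 CPM, exact permutation test over 43758 splits, 2-sided p = 0.28). It was lower in Mbd5+/GT mice in each litter (−0.91, −1.72 and −0.22), and the exact permutation test with mice exchanged only within litters gave p = 0.16 over 3500 splits. With the score in place of surrogate variables the estimate was −0.16 ± 0.13 for Bcl11b, −0.0034 ± 0.14 for Foxp2 and −0.15 ± 0.081 for Tle4. Without the 4 set-aside WT libraries it was 0.053 ± 0.13 for Bcl11b, −0.017 ± 0.14 for Foxp2 and −0.11 ± 0.11 for Tle4, so the sign of Bcl11b changed without those libraries. The rule removed only WT libraries in cortex, those with the most striatal markers. For genes that rose with the striatal score, the direction of this change was therefore largely set by the removal. The part of striatal tissue in these estimates was not tested.

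**Figure D5:**
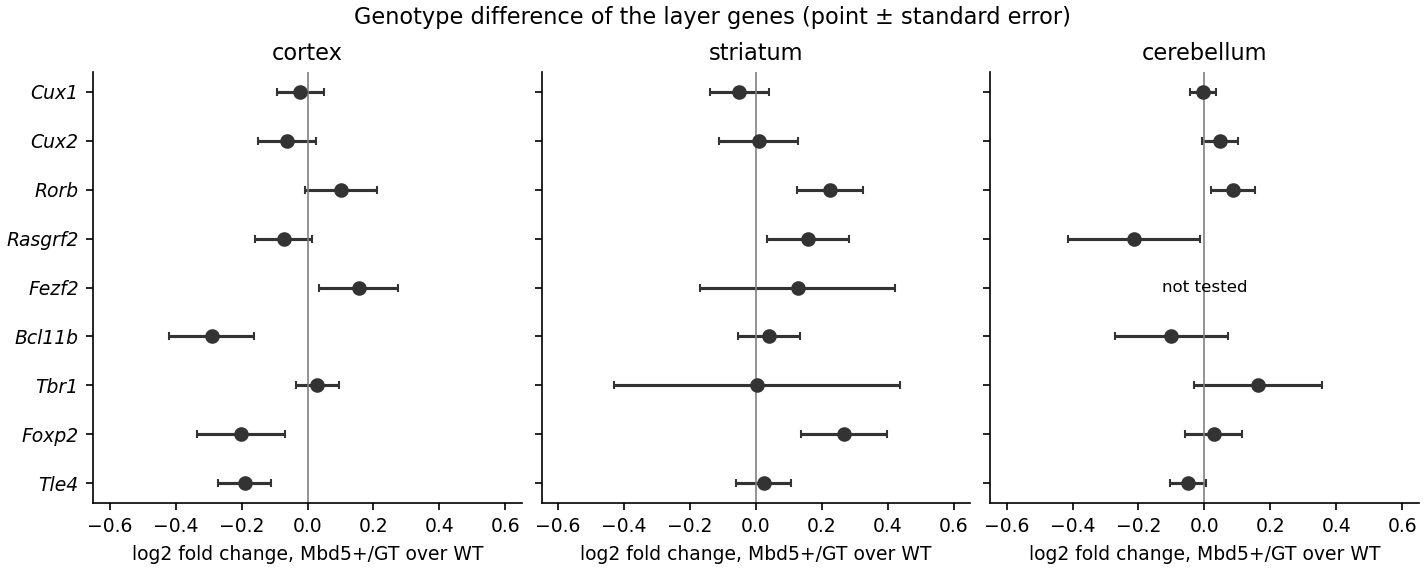
Log2 fold change of Mbd5+/GT over WT mice for each layer gene in cortex, striatum and cerebellum (edgeR with surrogate variables, 10 against 8 mice), with standard errors. No gene passed an adjusted p under 0.05, and Fezf2 was not tested in cerebellum.

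In striatum, 0 of 9 genes passed with edgeR or DESeq2, where 0.00539% of 18546 genes did with edgeR and 3 genes with DESeq2. Rorb reached an unadjusted p of 0.039 (log2 fold change 0.22 ± 0.10, adjusted p = 0.64), higher in Mbd5+/GT mice, a direction in which 4.24% of genes reached an unadjusted p under 0.05. It lay at 18.2 to 29.7 CPM in WT (median 22.6) and 22.1 to 48.8 CPM in Mbd5+/GT mice (median 29.3), and its mean was higher in Mbd5+/GT mice in each of the 3 litters. The 2 highest Mbd5+/GT libraries were those of mouse M758, whose thalamic markers summed to 678 CPM against a WT median of 65.4 CPM, and mouse M756, whose striatal markers were low. Without the set-aside libraries the estimate for Rorb was 0.27 ± 0.12, and over all alternatives it lay between 0.22 and 0.45 with adjusted p from 0.20 to 0.86. Foxp2 was at 0.27 ± 0.13 (unadjusted p = 0.060), and the standard error of Tbr1 was 0.43, which leaves its genotype difference poorly determined.

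In cerebellum, 8 of the 9 genes passed the filter on low counts and 0 of them passed the test with edgeR or DESeq2. Of 18160 genes, 0.00551% had an adjusted p under 0.05 with edgeR, and 3 genes did with DESeq2. None of the 8 had an unadjusted p under 0.05 in edgeR. The estimates ran from −0.21 ± 0.20 for Rasgrf2 to 0.16 ± 0.19 for Tbr1, and Cux1 was at −0.0033 ± 0.039. Fezf2, with 1 to 6 reads per library in Mbd5+/GT and 0 to 5 in WT mice, was not tested.

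Whether the genotype difference itself differed between regions was tested in 1 fit of all 54 libraries. The share of genes called was 0% in each of the 3 contrasts, and 0 of the 9 genes passed. Foxp2 came nearest, with a genotype difference lower in cortex than in striatum by 0.81 ± 0.31 (unadjusted p = 0.012, adjusted p = 0.99). Without the set-aside libraries this difference was −0.058 ± 0.30 (unadjusted p = 0.85), and without litter 2 it was −0.70 ± 0.40 (unadjusted p = 0.088). In cortex the set-aside libraries were all WT and had the most striatal markers, with which Foxp2 rose. The direction of the first change was therefore largely set by their removal. Foxp2 lay at 9.16 to 48.9 CPM in WT cortex and 11.6 to 42.1 CPM in Mbd5+/GT cortex, and at 12.4 to 57.6 CPM in WT striatum and 34.3 to 57.4 CPM in Mbd5+/GT striatum. The striatal marker score differed between the genotypes by −0.59 in cortex and 0.32 in striatum, where the litters were mixed (0.37, 0.047 and −0.30), and its part in the difference was not tested.

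Among the other layer genes, none was called between genotypes in any region. In cortex 6 of them had an unadjusted p under 0.05 and all 6 were lower in Mbd5+/GT mice, the direction of 4.51% of all genes at that level. Leaving out the set-aside libraries, 1 deep-layer and no upper-layer gene was lower at that level, and with the marker score in place of surrogate variables 4 deep-layer and no upper-layer genes were. Over all genes, in either direction, 1580 of 18661 reached that level in the main fit. It was 495 of 19392 without the set-aside libraries and 678 of 18661 with the marker score. The 6 genes were the upper-layer genes Pou3f1 (−0.34 ± 0.098), Calb1 (−0.20 ± 0.082) and Lmo4 (−0.19 ± 0.072), and the deep-layer genes Syt6 (−0.45 ± 0.13), Parm1 (−0.23 ± 0.077) and Etv1 (−0.14 ± 0.060), with adjusted p from 0.34 to 0.52. In striatum Pou3f2 was at 0.31 ± 0.082 (adjusted p = 0.63) and in cerebellum Pou3f3 at −0.11 ± 0.039 (adjusted p = 1.00). The median genotype difference in cortex was −0.089 over the 18 upper-layer and −0.051 over the 20 deep-layer genes, against −0.0042 over all genes tested.

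The genes most like each of the 9 across the 18 cortex libraries were taken as those with the highest Pearson r on the log2 CPM scale among 11845 genes of at least 5 CPM. Foxp2 was closest to Nexn, Sh3rf2 and the dopamine receptor Drd1 (r = 0.95, 0.94 and 0.93), and Bcl11b to Ankrd63, Gnal and Bcr (0.94, 0.94 and 0.93). Gnal encodes a G protein subunit that couples the dopamine receptor Drd1 in the striatum. Fezf2 was closest to Galnt9, Trabd2b and Efhd2 (0.95, 0.92 and 0.91), and Tbr1 to Prickle1, D17Wsu92e and Sel1l3 (0.95, 0.94 and 0.94). Among the upper-layer genes, Cux2 was closest to Tmem132d, C77080 and Rgs6 (0.93, 0.93 and 0.92), Rorb to Rassf3, Pamr1 and Nr2f1 (0.94, 0.94 and 0.93), Cux1 to Kcnc1, Foxo3 and Tbc1d30 (0.91 each) and Rasgrf2 to Fam160b1, Adap2 and Bcl2l11 (0.83 each). Pamr1, close to the upper-layer gene Rorb, is on the list of other deep-layer genes. Tle4 had the least close neighbours, Spg20, Tgfa and Pxylp1 (0.78, 0.76 and 0.76).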

How the data were processed

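Per the labels, the submitters' processing notes name FastQC 0.10.1, STAR 2.4.2 and the build GRCm38. The table holds raw counts per gene from the gene-count mode of STAR, used as the authors deposited them, and whether counting used strand is not given in the sources used here. Reads of 92 spike-ins (0.0207% to 0.728% of a library) were left out. Gene names came from GENCODE M21, and reads on overlapping genes cannot be assigned. Of the 9 genes only Cux1 shares exon bases with another gene, the antisense Gm16599, which had 14 reads.

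A gene was kept if its count exceeded 4 in 8 or more libraries, and was fitted with edgeR 4.0.16 (quasi-likelihood, TMM, robust), per region for genotype with surrogate variables (sva 3.50.0; 4 in cortex, 4 in striatum, 2 in cerebellum) and over all 54 libraries by group for regions. P-values were adjusted by Benjamini-Hochberg over all genes tested, and the standard error is the log2 fold change divided by the square root of F. DESeq2 1.42.0 was an alternative. Log2 CPM had a prior count of 2. The functions were tested on simulated data. Labels say that each mouse gave 1 library per region; the replicates within a group are separate mice.

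The layer genes and lists were chosen with earlier results of these data known, and the scores, the fits on them and the set-aside rule (own markers under 0.5 times, or in cortex striatal markers above 2 times, the region's median) were chosen after seeing the data. All 9 genes are named. Of the other layer genes, the 3 with the largest region difference in each list and those with an unadjusted genotype p under 0.05 are named, and for likeness the 3 closest genes. A gene that this rule would name is not reported here. The mouse number pairs regions because the libraries come from 1 animal. Deviations from group means correlated with a median of 0.091 (cortex and striatum), 0.16 (cortex and cerebellum) and 0.062 (striatum and cerebellum) within a mouse, and near 0 between mice (−0.0059, −0.010 and −0.0049).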

Additional observations from a re-analysis of the deposited data

Results flagged for a closer look

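The 9 genes were checked in each region and genotype, and the layer balance in cortex, for a library whose gap to its nearest neighbour was large against the range of its group. Of 56 groups checked, 8 were flagged, and chance flags about 1 in 20. In cortex, Cux1 stood at 169 CPM in WT mouse M751, against 92.5 to 115 CPM in the other WT mice. Tle4 stood at 65.7 CPM in Mbd5+/GT mouse M766, against 44.5 to 54.9 CPM, and the layer balance of the same library at 0.28, against 1.20 to 1.70.

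In striatum, Bcl11b stood at 225 CPM in Mbd5+/GT mouse M764, against 102 to 160.4 CPM in the other Mbd5+/GT mice, and that library had the highest striatal marker sum. In cerebellum, the library of Mbd5+/GT mouse M755 stood apart for Rorb at 31.9 CPM (11.0 to 18.1 CPM in the others), Rasgrf2 at 131 CPM (2.98 to 20.2 CPM) and Bcl11b at 11.7 CPM (0.74 to 3.32 CPM). Rasgrf2 was at 81.9 CPM in WT mouse M754, against 2.91 to 38.7 CPM in the other WT mice. These are the cerebellum libraries with the fewest granule cell markers.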

How the results depend on the processing

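With the mouse as a replicate block, 4, 7 and 6 of the layer genes passed between cortex and striatum, cortex and cerebellum, and striatum and cerebellum, as without it, and the block changed no other call of the 9 genes. Among the other layer genes it moved the upper-layer genes higher in cortex than in cerebellum from 15 to 14, those higher in striatum than in cerebellum from 9 to 11, and the deep-layer genes lower in cortex than in striatum from 3 to 2. No setting tried gave a genotype call for any of the 9 genes in any region. Some genotype estimates changed sign, none of them past the test. In cortex, Cux1 was at 0.086 with litter and sex in place of surrogate variables, 0.072 without litter 2 and 0.11 without the set-aside libraries, and Cux2 at 0.073, 0.010 and 0.067. Without the set-aside libraries Rasgrf2 was at 0.065, Fezf2 at −0.024 and Bcl11b at 0.053 in cortex, and Cux2 at −0.048, Fezf2 at −0.17, Bcl11b at −0.0021, Tbr1 at −0.39 and Tle4 at −0.050 in striatum. Bcl11b was at −0.013 in striatum without litter 2 and Tbr1 at −0.055 with DESeq2. The cause was not tested. Without the set-aside libraries, 2 genes passed on the cortical score and 1 on the striatal score in cortex, and 1 on the striatal score in striatum, where fewer libraries and a narrower score were fitted. Fewer of all genes passed in those fits too. DESeq2 gave no p for Rasgrf2 in the region comparisons, and it is not counted as lost. Low reads limit Fezf2 in cerebellum.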
